A study of Macaca mulatta with 6 samples.

Results

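The genes described here mark or act in the blood vessels of the corpus luteum: CDH5, CLDN5, FLT1, ANGPTL4, CSPG4 and CNN1. They are all the probe sets whose annotated symbol is one of these 6 names, 11 of the 52766 probe sets tested and 6 of the 14132 named genes. The 6 were selected on their T0901317 minus DMSO differences in an earlier analysis of these same values. Those differences are therefore given as a description, with no test. Differences between the 3 replicates played no part in the choice and were tested.

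The data were 6 arrays of dispersed luteal cells from rhesus macaques (Macaca mulatta). The corpora lutea were taken 12 days after the luteinizing hormone surge, and the mixed cells were plated on fibronectin in serum-free medium with insulin and transferrin. The control group received 0.1% DMSO, the vehicle, and the treated group 1 µM T0901317, a synthetic compound that activates the liver X receptors (LXRs), both for 24 h from plating. Each group had 3 arrays, and the design text calls the replicates paired. Cells were not sorted, so each array reads whatever mixture of luteal, vessel, stromal and immune cells was plated. The labels tie no array to an animal, and p-values measure only the spread between these arrays. The series title gives the question as the LXR target genes of luteal cells.

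The corpus luteum is among the most densely vascularised tissues of the body. Capillary endothelial cells are joined by adherens junctions, built on VE-cadherin, and by tight junctions, built on claudins. Vascular endothelial growth factor acts on endothelial receptors to drive vessel growth when the gland forms. Pericytes wrap the capillaries, and smooth muscle cells surround the larger vessels and contract through actin and its binding proteins. LXRs are nuclear receptors for oxidised cholesterol that pair with the retinoid X receptor and induce genes of cholesterol export and fatty acid synthesis.

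Values are log2 levels from the robust multi-array average (RMA), so a difference of 1 is a doubling. A probe set was called dim below 4.63, a level that 95% of the array's Bacillus spike-in probe sets stayed under in the mean. Levels of different probe sets are not comparable, since each binds with its own strength. Of the 11 probe sets, 8 lay above 4.63 on all 6 arrays, both FLT1 probe sets lay below it on all 6, and the dimmest CSPG4 probe set crossed it. Of the luteal markers measured, 7 of 7 were above 4.63 in mean level. STAR, which carries cholesterol into mitochondria, read 10.5 to 11.5 with DMSO and 10.6 to 11.5 with T0901317. Of the endothelial markers 17 of 20 were above 4.63, while KDR, MMRN2 and FLT1 lay below it on every array. All 8 measured pericyte markers were above it.

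The arrays of replicate 3 stood apart. For actin, GAPDH and EF1a the array carries control probe sets at both transcript ends. Their 3' minus 5' level, which grows as RNA is degraded or copied incompletely, averaged 1.89 and 1.30 on them and 0.69 to 1.00 on the other 4. It differed between treated and vehicle arrays by 0.16, -0.08 and -0.59 in pairs 1, 2 and 3. The interquartile range of levels over all probe sets was also narrower on the replicate 3 arrays, at 2.46 and 2.47 against 2.71 to 2.93 on the others. Results below are given with and without replicate 3 where it moves them.

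CDH5 encodes VE-cadherin, the adhesion molecule of endothelial adherens junctions. On its brighter probe set (MmugDNA.14995.1.S1_at) the DMSO arrays of replicates 1, 2 and 3 read 7.48, 7.99 and 7.43, and the T0901317 arrays 7.75, 8.37 and 7.95. Each treated array was above its own vehicle array, but the groups overlap because replicate 2 was high in both. Means were 7.63 ± 0.31 with DMSO and 8.02 ± 0.31 with T0901317 (SD, n = 3), and the mean pair difference was 0.39 ± 0.12 (SD, n = 3 pairs), or 1.31-fold. The dimmer probe set (MmuSTS.3396.1.S1_at) read 5.87, 6.19 and 6.18 with DMSO and 6.10, 6.34 and 6.36 with T0901317. Its mean pair difference was 0.19 ± 0.04, again above 0 in 3 of 3 pairs. CDH5 was thus the one gene of the 6 with several probe sets that were all above 0 in every pair.

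CLDN5 encodes claudin-5, the main sealing protein of endothelial tight junctions. Its single probe set (MmuSTS.3423.1.S1_at) read 7.14, 7.47 and 7.20 with DMSO and 7.40, 7.48 and 7.65 with T0901317. The groups overlap, since the vehicle array of replicate 2 lay above the treated array of replicate 1. The pair differences were 0.26, 0.01 and 0.46, with a mean of 0.24 ± 0.22 (SD, n = 3 pairs). Pair 2 thus had almost no difference, and the mean was 0.36 without replicate 2 and 0.14 without replicate 3.

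FLT1 encodes VEGF receptor 1, which binds the growth factor tightly and also exists as a soluble decoy. Its brighter probe set read 3.20, 3.42 and 3.60 with DMSO and 3.75, 3.52 and 3.76 with T0901317. All 6 values are below the dim reference, and only 11.5% of probe sets were dimmer. The mean pair difference of 0.27 ± 0.25 rested mostly on pair 1, at 0.56, against 0.10 and 0.16 in pairs 2 and 3. Without replicate 1 it was 0.13, and with both probe sets averaged 0.17. The second probe set, also dim, read 2.82 to 3.01 over the 6 arrays and had a mean difference of 0.06 ± 0.09. These FLT1 values are too close to the array's background to give a level of the transcript.

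ANGPTL4 encodes a secreted inhibitor of lipoprotein lipase that also acts on vessel permeability, and it is a known target of the peroxisome proliferator-activated receptors (PPARs) and of hypoxia signalling. Both of its probe sets lay well above the dim reference on all 6 arrays. Its brighter probe set (MmuSTS.1359.1.S1_at) read 9.64, 10.6 and 8.37 with DMSO and 9.29, 10.2 and 8.20 with T0901317. The replicates lay far apart and kept their ranking in both groups, so the groups overlap widely. Group means were 9.53 ± 1.11 and 9.23 ± 1.01 (SD, n = 3), yet every treated array lay below its vehicle array, by 0.35, 0.37 and 0.17. The mean pair difference was -0.30 ± 0.11 (SD, n = 3 pairs), or 1.23-fold lower with T0901317. On the second probe set (MmugDNA.23470.1.S1_at) the arrays read 8.20, 8.57 and 7.81 with DMSO and 8.09, 8.51 and 7.85 with T0901317. There the mean difference was -0.04 ± 0.07, below 0 in 2 of 3 pairs. The probe sets tracked each other over the 6 arrays (Pearson r = 0.985, across arrays that share replicates), but they gave different sizes for the treatment difference, and their mean was -0.17.

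CSPG4 encodes NG2, a proteoglycan on the surface of pericytes. Its 3 probe sets disagreed. The brightest (MmugDNA.34877.1.S1_at) read 8.41, 8.48 and 7.76 with DMSO and 8.15, 8.45 and 6.98 with T0901317, and replicate 3 was low in both groups. The pair differences were -0.26, -0.03 and -0.78, with a mean of -0.36 ± 0.38 (SD, n = 3 pairs). Pair 3, the one with the largest 3' to 5' shift, held most of it: the mean was -0.15 without replicate 3 and -0.52 without replicate 2. With the 3' to 5' gap as a covariate it was -0.23.

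The second CSPG4 probe set (MmugDNA.31603.1.S1_at) read 7.14, 7.29 and 6.75 with DMSO and 6.92, 7.14 and 7.19 with T0901317. In pair 3 it was 0.44 higher with T0901317, opposite to the brightest probe set in the same RNA, and its mean of 0.03 ± 0.36 became -0.18 without replicate 3. The third (MmugDNA.20461.1.S1_at), near the dim reference, had 0.68, 0.05 and -0.05 in the pairs. Over the 6 arrays the brightest probe set correlated with the others at r = 0.162 and r = -0.614. The mean over the 3 probe sets was -0.03, so the direction of CSPG4 depends on which probe set is read.

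CNN1 encodes calponin 1, an actin-binding protein of contractile smooth muscle. Its single probe set (MmuSTS.3566.1.S1_at) read 8.70, 7.30 and 7.93 with DMSO and 8.27, 7.15 and 7.53 with T0901317. Replicate 1 was highest and replicate 2 lowest in both groups, and the groups overlap. Every treated array lay below its vehicle array, by 0.43, 0.14 and 0.40, with a mean of -0.33 ± 0.16 (SD, n = 3 pairs), or 1.25-fold lower. Without replicate 2 the mean was -0.42.

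Over the 11 probe sets, 4 were above 0 in all 3 pairs and 3 were below 0 in all 3. None had groups that did not overlap in level (0 of 11, against 2.45% of all probe sets). The choice of the members used this contrast, so nothing is read from these counts. The median absolute difference over all 52766 probe sets was 0.08. In bulk RNA, fewer cells of a type and less RNA per cell cannot be told apart.

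**Figure D1:**
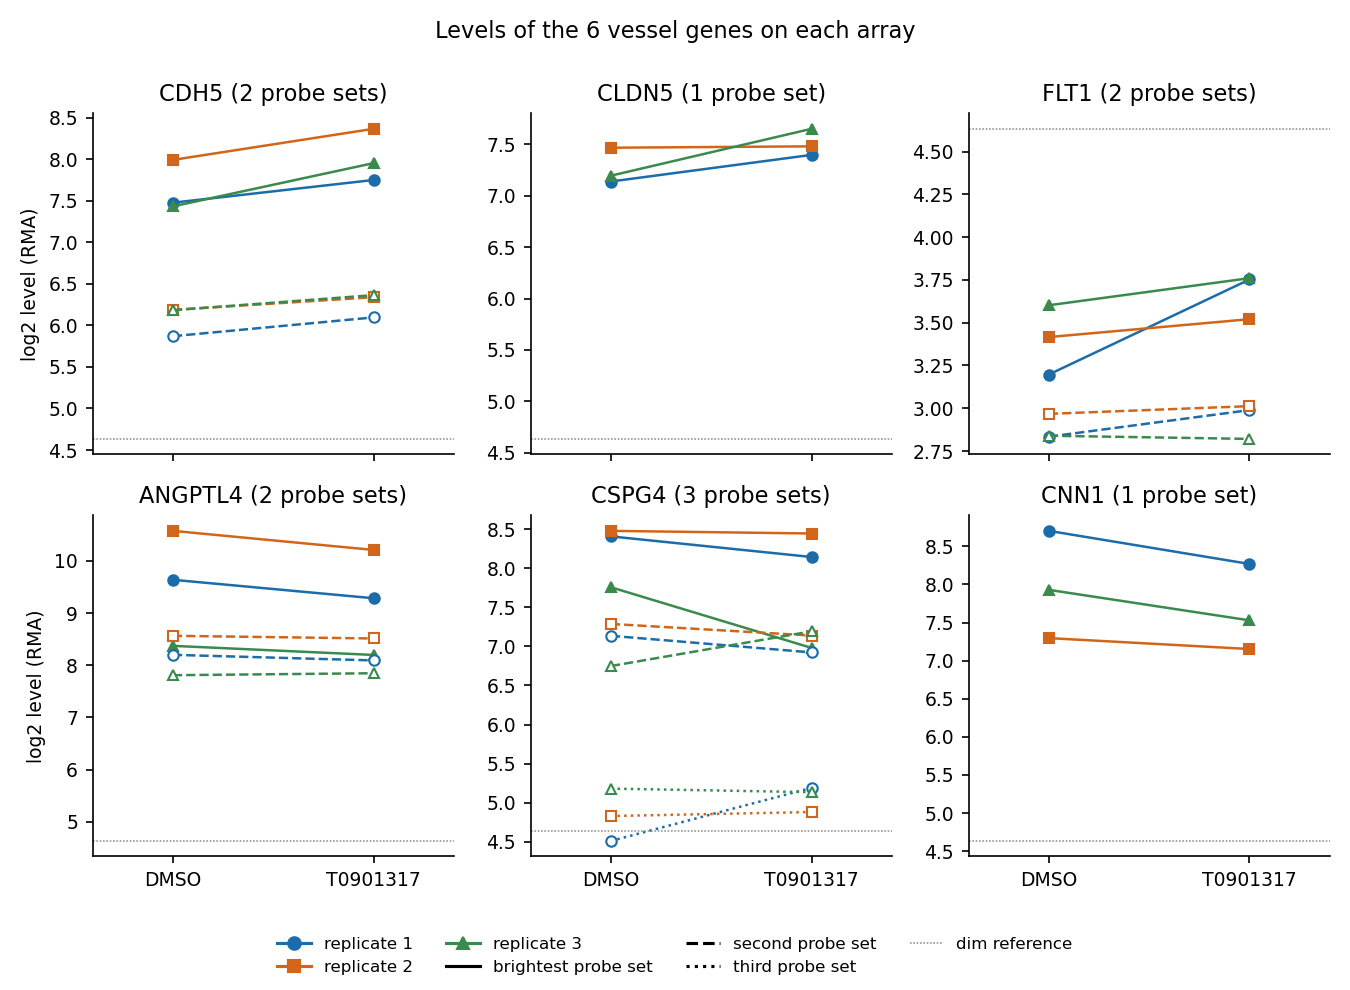
Log2 level (vertical axis, RMA; the scale differs between panels) with DMSO and with T0901317 (horizontal axis) for every probe set of the 6 genes, 1 line per replicate. Line style separates probe sets of a gene and the dotted grey line is the dim reference of 4.63. Lines of ANGPTL4, CNN1 and the brightest CSPG4 probe set lie far apart by replicate, and both FLT1 probe sets lie below the reference.

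**Figure D2:**
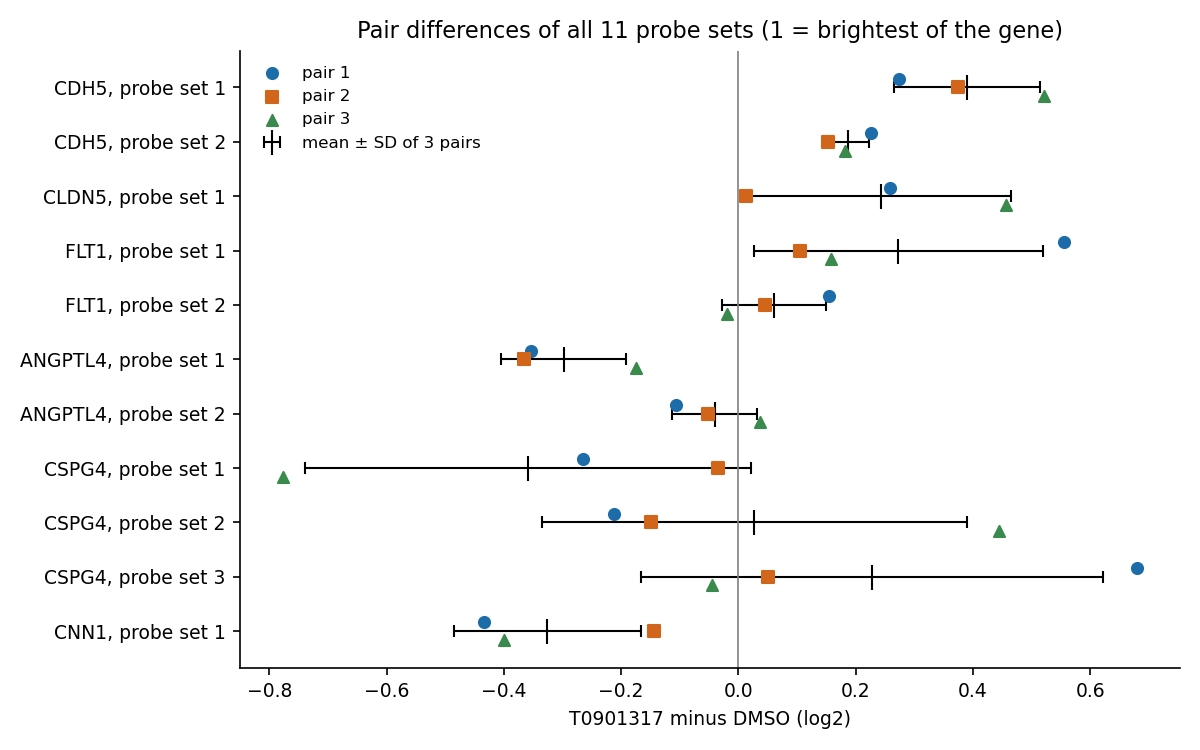
T0901317 minus DMSO on the log2 scale (horizontal axis) for the 11 probe sets (vertical axis, numbered from the brightest of each gene). Each pair has its own symbol, with the mean ± SD of the 3 pairs in black. Both CDH5 probe sets lie above 0 in every pair, while the CSPG4 probe sets have means of -0.36, 0.03 and 0.23.

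On their brightest probe sets ANGPTL4, CNN1, CSPG4 and CDH5 differed between replicates, and CLDN5 and FLT1 did not pass the test. For each probe set, limma's F test asked whether the 3 replicates differed, with treatment as the other term and 2 arrays per replicate. It called 5 of the 11 probe sets (adjusted p under 0.05), against 40.2% of all probe sets tested, a share near the background. By brightest probe set 4 of the 6 genes were called, against 46.2% of the named genes. Replicates here stand for whatever separated the cultures, and the RNA measure above moves with replicate 3; its part was not tested.

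ANGPTL4 varied most. Its replicate means were 9.46, 10.4 and 8.29 for replicates 1, 2 and 3 (limma F adjusted p = 3.4e-07). Replicate 2 was above replicate 1 by 0.93 ± 0.10 (limma's SE; adjusted p = 1.3e-04), and replicate 3 was below replicate 1 by 1.18 (contrast -1.18 ± 0.10; adjusted p = 1.2e-05). Between replicates 2 and 3 the difference was 4.31-fold. The second probe set had the same ranking with means of 8.15, 8.54 and 7.83 (F adjusted p = 0.0019). Its neighbours in that ranking did not pass (limma adjusted p = 0.056 and 0.057), while replicates 2 and 3 differed (adjusted p = 7.8e-04). Its call was lost without replicate 2 (adjusted p = 0.13).

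CNN1 ran differently, with replicate means of 8.49, 7.22 and 7.73 (limma F adjusted p = 5.8e-05). All 3 replicates differed from each other: replicate 2 lay below replicate 1 (-1.26 ± 0.13; limma adjusted p = 6.2e-05), replicate 3 lay below replicate 1 (-0.76 ± 0.13; adjusted p = 0.0011), and replicate 3 lay above replicate 2 (0.50 ± 0.13; adjusted p = 0.010). CNN1 was thus highest in replicate 1, where ANGPTL4 and CDH5 were not.

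CSPG4 on its brightest probe set had means of 8.28, 8.46 and 7.37 (limma F adjusted p = 5.7e-04). Replicate 3 lay below replicate 1 by 0.91 (contrast -0.91 ± 0.16; adjusted p = 0.0016) and below replicate 2 (-1.09 ± 0.16; adjusted p = 3.9e-04). Replicates 1 and 2 did not differ beyond their spread (0.19 ± 0.16; adjusted p = 0.67), so the call was lost without replicate 3 (adjusted p = 0.37). The other CSPG4 probe sets were not called (F adjusted p = 0.45 and 0.32).

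CDH5 was highest in replicate 2, with means of 7.61, 8.18 and 7.69 (limma F adjusted p = 0.0072). Replicate 2 was above replicate 1 (0.57 ± 0.12; adjusted p = 0.012) and replicate 3 was below replicate 2 (-0.49 ± 0.12; adjusted p = 0.011), while replicates 1 and 3 did not differ beyond their spread (0.08 ± 0.12; adjusted p = 0.64). The call was therefore lost without replicate 2 (adjusted p = 0.74), and the dimmer CDH5 probe set was not called (F adjusted p = 0.18). CLDN5 had 7.27, 7.47 and 7.42 (F adjusted p = 0.45), and FLT1 3.47, 3.47 and 3.68 on its brighter probe set (F adjusted p = 0.44). Of the 11 probe sets, replicate 2 against 1 called 3 (10.4% of all probe sets, 5.85% higher and 4.59% lower). Replicate 3 against 1 called 3 (32.1%, with 15.6% higher and 16.4% lower), and replicate 3 against 2 called 5 (38.3%, with 20.4% higher and 17.8% lower).

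Most of the listed genes around ANGPTL4, CNN1 and CDH5 stood highest in the same replicate as that gene. Comparing replicate rankings was decided after the values were seen, and the counts are descriptions. For ANGPTL4, 6 of 7 other measured hypoxia targets were also highest in replicate 2 (30.1% of named genes were) and 5 had its full ranking (20.4% of named genes; 4 after cyclic loess). Those 5 are LDHA, SLC2A1, PDK1, P4HA1 and KDM3A, of which PDK1 was above the dim reference on only 2 of 6 arrays. SLC2A1, the glucose transporter GLUT1, read 8.01, 9.24 and 6.73 with DMSO and 7.93, 9.17 and 6.86 with T0901317, with the same high in replicate 2 and low in replicate 3 (limma F adjusted p = 3.8e-07). The ranking was shared by fewer of the other listed PPAR targets, 2 of 6, and by 1 of 6 genes around lipoprotein lipase.

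For CNN1, 10 of the 12 other contractile genes were highest in replicate 1 too (28.5% of named genes). ACTG2, TAGLN and MYH11 had its full ranking (9.08% of named genes), and MYH11, the smooth muscle myosin, read 8.77, 7.44 and 8.05 with DMSO. Only these 3 of the 12 were lowest in replicate 2 as CNN1 was (32.2% of named genes), and most of the others were lowest in replicate 3. For CDH5, 12 of the 17 other endothelial markers were highest in replicate 2 (30.1% of named genes). Fewer, 4 of the 17, had its full ranking (9.67% of named genes), and 6 were lowest in replicate 1 as CDH5 was (28% of named genes). Of 9 other junction partners 5 were highest in replicate 2 and 1 had the full ranking. PECAM1, an adhesion molecule of endothelial cells, read 8.17, 9.05 and 8.10 with DMSO and 8.29, 9.11 and 8.60 with T0901317 (limma F adjusted p = 6.7e-04).

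Pericyte markers did not share one ranking. Of the 7 other than CSPG4, 3 had its full ranking, NOTCH3, MCAM and COX4I2 (20.4% of named genes). Highest in replicate 2 like CSPG4 were 4 (30.1% of named genes), and lowest in replicate 3 were 3 (39.8%). KCNJ8, a potassium channel subunit of pericytes, instead read 8.77 and 8.48 on the replicate 3 arrays and 6.44 to 6.67 on the other 4. Against 46.2% of all named genes, limma's F test called 5 of the 7 other pericyte markers, 10 of the 12 other contractile genes, 9 of the 17 other endothelial markers and 6 of the 7 other hypoxia targets. The endothelial share is close to that background. List medians of macrophage markers were 7.06, 8.80 and 8.89 in replicates 1, 2 and 3. These macrophage medians are the values of 1 gene, C1QB, and MRC1 of that list was lowest in replicate 3. Medians of luteal markers were 8.33, 7.45 and 7.80, and of fibroblast markers 7.94, 8.33 and 7.44. The luteal medians are the values of 1 gene, INHA, and the luteal markers did not share one ranking. INHA, HSD3B2 and HSD17B7 were highest in replicate 1, STAR, FDX1 and CYP19A1 in replicate 2, and NR5A1 in replicate 3. STAR had replicate means of 10.8, 11.5 and 10.6. What part cell make-up has in the replicate differences was not tested.

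**Figure D3:**
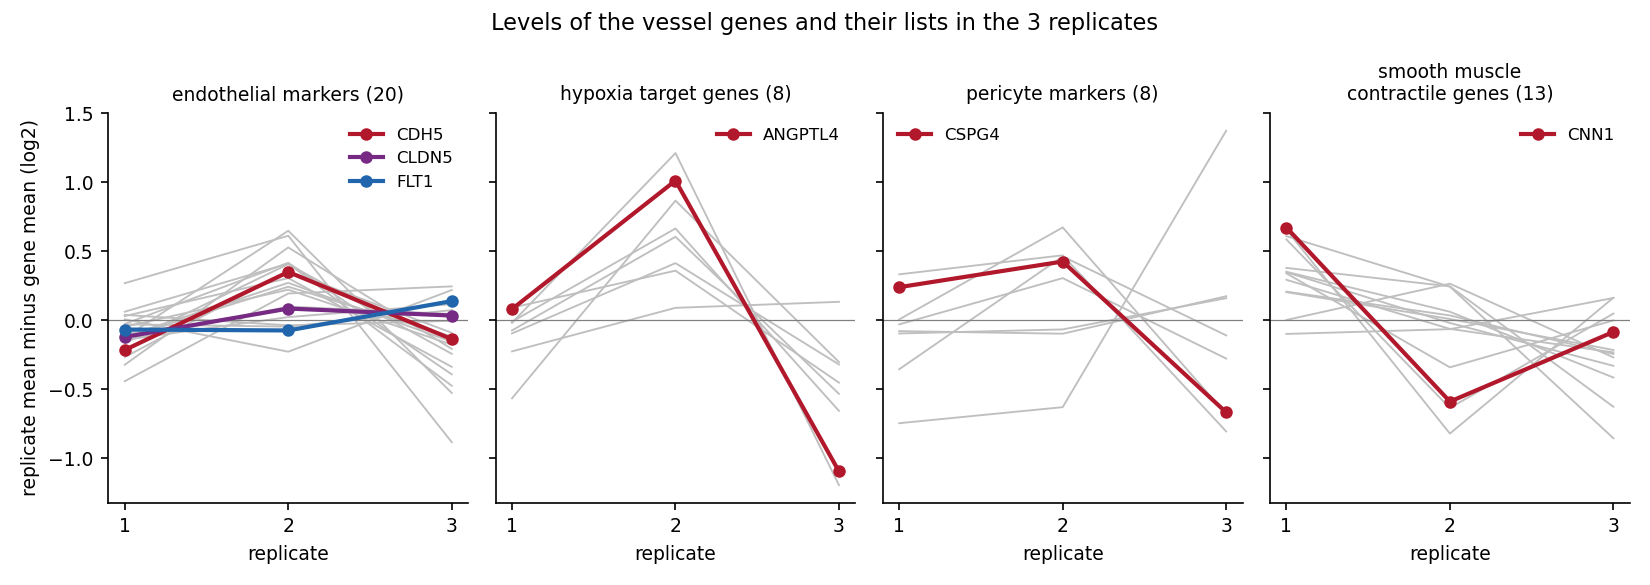
Mean log2 level of each replicate (2 arrays) minus the gene's mean over replicates (vertical axis) in replicates 1 to 3 (horizontal axis, which has no order; lines join values of 1 gene). Grey lines are the other measured genes of each list, whose number is in brackets. ANGPTL4 has its high in replicate 2 with 6 of the 7 other hypoxia targets, and CNN1 its high in replicate 1 with 10 of the 12 other contractile genes.

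The genes around the members were then compared between T0901317 and DMSO, from lists written with earlier results of these data known. Limma's fit called 45 of all 52766 probe sets, 0.0853%, with 0.0606% higher and 0.0246% lower. In the vessel and pathway lists it called none of the other measured genes. The median change over all named genes was -0.02, with 41.4% above 0. Each list below is given without the 6 genes.

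Of the 17 other endothelial markers 0 were called (0 at an unadjusted p under 0.05), 11 were above 0 and the median was 0.02. That median ran from 0.05 to 0.08 under all alternatives but the removal of the replicate block, which leaves it as it was. The largest differences, chosen after the values were seen, were PECAM1 (0.23 ± 0.11, limma's SE) and EMCN, a surface mucin (0.22 ± 0.13), while ROBO4, a guidance receptor of endothelium, had -0.19 ± 0.12. So 6 of the 17 lay below 0, on the other side from CDH5 and CLDN5. Of 5 lymphatic markers 0 were called and 2 had an unadjusted p under 0.05: LYVE1, a hyaluronan receptor (0.29 ± 0.12), and the chemokine CCL21 (-0.22 ± 0.10; limma adjusted p = 1.00 for both). LYVE1 is also made by some macrophages.

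Among ligands and receptors of the VEGF, angiopoietin and PDGF families, 0 of 19 were called (0 at an unadjusted p under 0.05), 11 were above 0 and the median was 0.08. Without replicate 1 it was -0.0037. TEK, the angiopoietin receptor, had 0.21 ± 0.12 and PGF, a ligand of FLT1, 0.19 ± 0.11. KDR, the main signalling receptor for VEGF, was dim on all arrays. Of 9 junction partners of CDH5 and CLDN5, such as catenins and occludin, 0 were called (0 at an unadjusted p under 0.05), 4 were above 0 and the median was -0.01. F11R, a junctional adhesion molecule, had the largest difference (0.15 ± 0.10).

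Contractile genes of smooth muscle lay below 0 together: 12 of 12 other than CNN1, and 12 after quantile normalization and after cyclic loess (11 without any one replicate). Their median was small, -0.08, and -0.13 without replicate 3. None was called, and 1 had an unadjusted p under 0.05, TPM2, a tropomyosin (-0.18 ± 0.08; limma adjusted p = 1.00). MYH11 had -0.16 ± 0.10 and TAGLN, or transgelin, -0.14 ± 0.06. CNN1 had the largest difference of the list, but it was chosen on that contrast, so nothing is read from its rank. Of the 7 other pericyte markers 0 were called (0 at an unadjusted p under 0.05), 4 were below 0 (3 after cyclic loess or quantile normalization) and the median was -0.01. Its sign was not stable (0.025 after either rescaling, -0.055 without replicate 3). COX4I2, a respiratory chain subunit of pericytes, went the other way from CSPG4 (0.26 ± 0.13), and KCNJ8 had -0.17 ± 0.11. Of 9 other cell surface proteoglycans, 0 were called (0 at an unadjusted p under 0.05), with a median of -0.0047 and GPC4, a glypican, at -0.17 ± 0.12.

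ANGPTL4 was set beside 3 lists. All 6 other PPAR targets measured lay below 0, with a median of -0.22, and 3 had an unadjusted p under 0.05, though 0 were called. They were PDK4, which restrains pyruvate oxidation (-0.29 ± 0.13), CREB3L3, a transcription factor of triglyceride metabolism (-0.29 ± 0.12), and ACADVL, an enzyme of fatty acid oxidation (-0.21 ± 0.08; limma adjusted p = 1.00 for each). Each lay below 0 in 3 of 3 pairs, as 15.8% of named genes did, but picking genes by that p-value favours such a count, so nothing is read from it. The median was -0.14 with all probe sets of a gene averaged. Their count below 0 was 6 in the rescaled data, and 5 without replicate 3, when 1 gene, CPT1A, was called. FABP4, 1 of the 6, had 0.76, 0.05 and -1.48 in the pairs, so its mean lay below 0 through pair 3 alone. It was above the dim reference on only 3 of 6 arrays.

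Of the 7 other hypoxia targets 0 were called (0 at an unadjusted p under 0.05), 3 were above 0 and the median was -0.0082 (0.037 after quantile normalization). CA9, a carbonic anhydrase, and ADM, adrenomedullin, had 0.16 ± 0.12 and 0.15 ± 0.08. Without replicate 1 only 1 of the 7 lay below 0. Of 6 other genes that control lipoprotein lipase 0 were called (0 at an unadjusted p under 0.05), with a median of 0.03 and 3 above 0. LPL itself, the enzyme ANGPTL4 inhibits, had -0.04 ± 0.13 and GPIHBP1, its anchor on capillary endothelium, -0.04 ± 0.13. APOA5, an activator of the enzyme, had 0.15 ± 0.13.

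**Figure D4:**
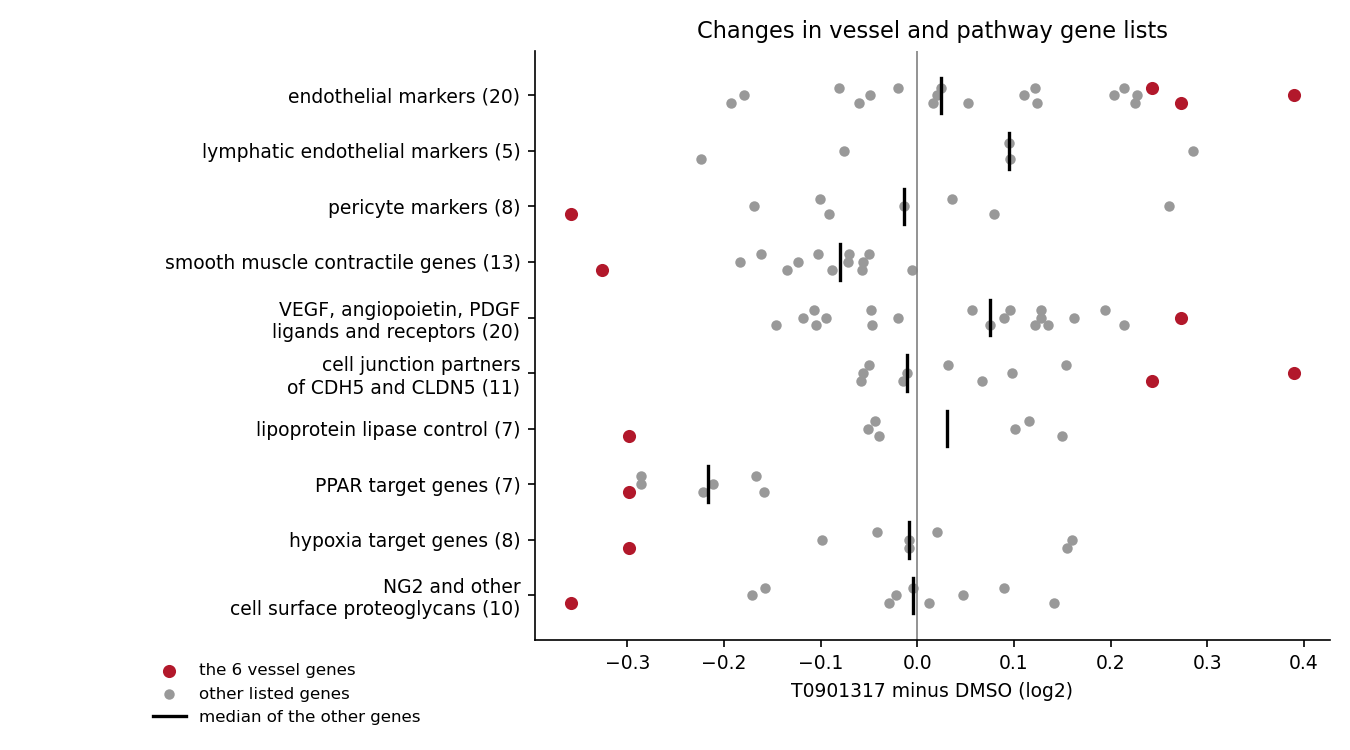
Treatment differences on the log2 scale (horizontal axis; T0901317 minus DMSO) for measured genes of 10 lists (vertical axis, number measured in brackets). Red points are the 6 vessel genes, which stand in several lists, grey points the other genes, and black bars the medians of the grey points. The grey points of contractile genes (12 of 12) and PPAR targets (6 of 6) all lie below 0. Among the PPAR targets, FABP4 was dim on some arrays.

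Markers of other cells in the cultures were read beside these values. None of their members was called (without replicate 3, HSD17B7 of the luteal and PPBP of the blood cell list were). The luteal list had a median difference of -0.18 with 5 of 7 below 0, macrophages -0.02 (6 of 9 below), blood cells and neutrophils -0.15 (7 of 8), T and NK cells -0.11 (6 of 6) and fibroblasts -0.08 (7 of 8). At an unadjusted p under 0.05 these lists had 1, 2, 2, 1 and 0 genes. The log2 of the summed levels ran from 12.3 to 12.7 with DMSO and from 12.3 to 12.7 with T0901317 for luteal markers, from 11.8 to 13.1 and from 11.6 to 12.9 for macrophages, and from 13.0 to 14.2 and from 13.1 to 14.1 for fibroblasts. It ran from 9.11 to 9.64 and from 8.76 to 9.32 for blood cells, whose S100A12 was dim on every array, and from 12.4 to 13.0 and from 12.3 to 12.9 for T and NK cells. For endothelial markers it ran from 10.8 to 11.5 and from 11.1 to 11.6, and for pericyte markers from 10.99 to 11.3 and from 10.9 to 11.3. The part of cell make-up in the differences of the 6 genes was not tested.

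The genes whose levels ran most like each member over the 6 arrays were taken from the named genes above the dim reference with an SD of at least 0.25. These correlations are descriptions over 6 arrays that share replicates. They include the treatment contrast on which the members were chosen, so a treatment difference shared with a member is partly built in. Nothing is read from it. CDH5 ran most like APOE (r = 0.990), the apolipoprotein of cholesterol transport, DNASE2 (r = 0.970), a lysosomal nuclease, and MECOM (r = 0.964), a transcription factor. APOE read 10.2, 10.9 and 10.1 with DMSO and 10.7, 11.5 and 10.8 with T0901317, high in replicate 2 and higher with treatment in each pair, as CDH5 was. CLDN5, with an SD of 0.19, was less closely matched, best by CFP (r = 0.919), APOC4 (r = 0.898) and RILPL2 (r = 0.887). None is named for FLT1, whose probe sets were dim.

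For ANGPTL4, CSPG4 and CNN1 the range of replicate means was 7.08, 3.05 and 3.87 times the size of the treatment difference. ANGPTL4 ran with DYNC2I2 (r = 0.997), RFX5 (r = 0.996) and FLRT2 (r = 0.996), whose own treatment differences were -0.08, -0.05 and -0.07. CSPG4 ran with CD276 (r = 0.998), TOX4 (r = 0.998) and MARCHF9 (r = 0.994), all low on the treated array of replicate 3. Their treatment differences were -0.15, -0.17 and -0.34. CNN1 ran with INHA (r = 0.996), the inhibin alpha subunit of steroid-producing cells, SELE (r = 0.994), an endothelial selectin, and GPATCH4 (r = 0.994). These had treatment differences of -0.21, -0.17 and -0.14. INHA read 8.51, 7.50 and 7.88 with DMSO and 8.15, 7.40 and 7.71 with T0901317, so a gene of steroid-producing cells had the same ranking as calponin.

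Among the members themselves, CDH5 and CLDN5 had r = 0.769 over the 6 arrays and ANGPTL4 and CSPG4 r = 0.886. CDH5 and CNN1 ran opposite (r = -0.825). CSPG4 and CNN1, the pericyte and smooth muscle genes, had r = 0.085. All these correlations include the treatment contrast on which the members were chosen, so nothing is read from their signs.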

How the data were processed

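The deposited values are log2 levels made by the authors with RMA, per the submitters' processing notes. Its version, and whether the 6 arrays were processed together, are not given in the sources used here. Array medians ran from 5.54 to 5.71 and interquartile ranges from 2.46 to 2.93, so the arrays did not share 1 distribution of levels. No scanner files or array dates were used, so no batch was tested. Gene names came from the platform annotation, updated by gene number through the supplied RefSeq table (0 symbols changed). The 99 control probe sets did not enter the tests. Where a gene had several probe sets, the one with the highest mean over the 6 arrays stood for it.

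Limma 3.58.1 in R 4.3.3 was fitted over all 52766 probe sets with treatment and replicate number as terms and eBayes with a variance trend. Tests of contrasts were two-sided, with Benjamini-Hochberg adjustment over all probe sets. The pairing comes from the design text. Deviations from the group means correlated at 0.658, 0.813 and 0.830 between arrays of 1 number, the best match for every array. No 2 arrays shared over 0.327% of values. The fit was tested on simulated data.

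The members and 15 lists were chosen with earlier results of these data known. Named genes are the members, the 2 largest changes per list and the 3 closest patterns per member except the dim FLT1. Others, such as PECAM1, SLC2A1 and KCNJ8, were chosen after their values were seen. Promoter motifs were not analysed here.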

Additional observations from a re-analysis of the deposited data

How the results depend on the processing

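The T0901317 minus DMSO differences of the 6 brightest probe sets kept their direction under all alternatives run: no replicate block, each replicate left out, quantile normalization, cyclic loess, the 3' to 5' covariate and the mean of a gene's probe sets. Each of these probe sets had the same sign in every pair, so leaving out a replicate could not change it. Removing the block leaves the mean as it is. The genes were also chosen on this contrast, so nothing is read from the kept direction. The size of the differences moved more. As the mean of the gene's probe sets CSPG4 was -0.03, ANGPTL4 -0.17 and FLT1 0.17. Leaving out 1 replicate gave 0.32 to 0.45 for CDH5, 0.14 to 0.36 for CLDN5, 0.13 to 0.36 for FLT1, -0.36 to -0.26 for ANGPTL4, -0.52 to -0.15 for CSPG4 and -0.42 to -0.27 for CNN1. The count of 45 probe sets called for treatment was 0 without the replicate block, 27 after quantile normalization, 27 after cyclic loess, 11 without the variance trend, 206 with the 3' to 5' covariate and 35 to 328 with 1 replicate left out, the highest without replicate 3. The count called for replicate was 21188, and 9045 to 21815 with 1 replicate left out. It was 17412 after quantile normalization and 16535 after cyclic loess, with 5 member probe sets called after either. The range of ANGPTL4's replicate means, 2.11 on its brighter probe set, was 1.84 after quantile normalization and 1.86 after cyclic loess. On its second probe set the range of 0.71 became 0.42 and 0.48. Of the member probe sets, 3 to 5 stayed called when 2 replicates were compared, the fewest without replicate 2. The endothelial median of 0.02 was 0.062 after quantile normalization, 0.062 after cyclic loess, 0.052 with all probe sets averaged and 0.050 to 0.081 with 1 replicate left out. The pericyte median of -0.01 was 0.036 with probe sets averaged, 0.025 after quantile normalization, 0.025 after cyclic loess and -0.055 to 0.011 with 1 replicate left out, and the contractile median ran from -0.128 to -0.080 with 1 replicate left out. The causes were not tested. With 3 pairs the smallest two-sided p of an exact sign-flip permutation test is 0.25, and 3 arrays a group limit precision.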
